A study of Mus musculus with 2 samples.

Results

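The genes described here encode the enzymes that write and erase methylation on cytosine in DNA: Dnmt1, Dnmt3a, Dnmt3b, Dnmt3l and Uhrf1 as writers, and Tet1, Tet2, Tet3 and Tdg as erasers. They were taken by gene symbol, with earlier results of these data known, and all 9 members were found in the deposited table of 14398 genes. The table compared 46C mouse embryonic stem cells, whose Sox1 locus holds a GFP reporter, that carried an empty vector (PB, the control) with 46C cells that overexpressed ID2 (PB-ID2). ID2 is a helix-loop-helix protein that binds E proteins and keeps them from DNA. The cells of both groups were at passages 21 to 24 and grew on gelatin in medium that held serum and leukemia inhibitory factor (LIF), and neither culture is described as a single clone. Each group had 1 library of total RNA, so no value below has a replicate, an error or a test. "Higher" and "lower" describe the ID2 library, and each pair of values gives the control library first.

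Methylation is carried at CG dinucleotides and has to be copied after each round of DNA replication. UHRF1 binds CG sites that are methylated on the old strand alone and brings DNMT1, which methylates the new strand. DNMT3A and DNMT3B methylate unmarked sites, helped by DNMT3L, a relative without catalytic activity of its own. The TET enzymes oxidize methylcytosine step by step, and TDG cuts out the most oxidized forms so that base excision repair can insert an unmodified cytosine. Mouse embryonic stem cells grown in serum hold dense methylation, and Tet1 and Tet2 are their main TET genes.

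Tet2 and Tet3 stood about 1.5-fold higher in the ID2 library, Tet2 at 1.49-fold and Tet3 at 1.52-fold, while Tet1 stood 1.07-fold lower. The copying pair Dnmt1 and Uhrf1 stood 1.15-fold and 1.17-fold higher. The 3 genes of de novo methylation, Dnmt3a, Dnmt3b and Dnmt3l, stood 1.19-fold, 1.12-fold and 1.09-fold lower, and Tdg 1.17-fold lower. Values are as normalized by the authors, at a sequencing depth that is unknown. Ratios were taken of the values plus 1, on the log2 scale, which understates the ratio of low genes.

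Because Tet2 and Tet3 stood higher together and Tet1 did not, the DNA just before their annotated starts is shown for comparison, with the CG dinucleotides on which these enzymes act in capitals. The sequences are from RefSeq on GRCm38.p6, which is not the build the authors used (mm9), and each is the 75 bases before the start on the strand of the gene (minus for all 3), a stretch free of annotated exons. The Tet1 stretch is chr10:62887325-62887399, the Tet2 stretch chr3:133544391-133544465 and the Tet3 stretch chr6:83441679-83441753. Farther out, within 250 bases of the start, annotated exons of any gene covered 174 bases for Tet3, 100 for Tet1 and 0 for Tet2.
Tet1: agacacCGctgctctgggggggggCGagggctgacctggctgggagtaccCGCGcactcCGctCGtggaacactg
Tet2: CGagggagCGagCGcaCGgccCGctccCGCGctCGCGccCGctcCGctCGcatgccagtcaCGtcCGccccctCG
Tet3: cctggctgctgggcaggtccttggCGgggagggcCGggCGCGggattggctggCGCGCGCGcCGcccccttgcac

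The Tet2 stretch held 15 CG dinucleotides, the Tet3 stretch 9 and the Tet1 stretch 6. Over 32851 RefSeq start windows the median was 2 in the same 75 bases, and 1.33% of windows held at least as many as Tet2, 13.9% as many as Tet3 and 27.7% as many as Tet1. All 3 counts were above this median over all windows. In the 250 bases before the start, the first windows of genes in the table had a median of 16 CG, beside 6 over all windows. Tet1 held 15 there, Tet3 17 and Tet2 51. The hexamer CANNTG, the E box that E proteins bind, was searched on both strands, which for this palindrome are the same, and was in none of the 3 stretches; 26.5% of all windows of this length held it. In the longer 250 bases before the start, the first RefSeq start of 5 of 9 members held it (Dnmt3b, Dnmt3l, Uhrf1, Tet3 and Tdg). So did 66.2% of all windows and 56.5% of the first windows of 10239 genes in the table. Counted more narrowly as the forms of E proteins were CAGCTG and, on either strand, CACCTG. Of the 9 members, 2 held such a form in the first window (Dnmt3b and Dnmt3l), beside 25.4% of those 10239 genes. A match is a run of letters and no evidence of binding, and which start these cells use cannot be read from gene-level values. Any link between these counts and the ratios of the members was not tested.

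Of the writers, the copying enzyme Dnmt1 stood at 16785 (control) and 19308 (ID2), a log2 ratio of 0.20. Uhrf1, its guide to half-methylated sites, stood at 13887 and 16273, a log2 ratio of 0.23. Both were among the genes with the highest values, with 99.0% of all genes below Dnmt1 and 98.7% below Uhrf1. They differed between libraries by nearly the same factor, so that the Uhrf1 value was 0.827 of the Dnmt1 value with empty vector and 0.843 with ID2.

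Dnmt3a stood at 2398 and 2013 (log2 ratio −0.25), the lowest ratio of the 9 members. Dnmt3b stood at 1958 and 1752 (−0.16). Dnmt3l, the cofactor of both, stood at 3125 and 2874 (−0.12). All 3 were lower, none by as much as 0.32 on the log2 scale. Their values relative to each other stayed close: the Dnmt3l value was 1.60 times and 1.64 times the Dnmt3b value, and the Dnmt3a value was 1.22 times and 1.15 times the Dnmt3b value. Set against the copying enzyme they stood further apart, since the Dnmt1 value went from 7.0 to 9.59 times the Dnmt3a value, a 1.37-fold shift. The same ratio of Dnmt1 to Dnmt3b went from 8.57 to 11.0, a 1.29-fold shift. A factor common to a library cancels in these ratios, but the setting of both libraries to a common distribution acts by rank and does not cancel. Unlike lengths also enter them, so only their shift between libraries is given.

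Of the erasers, Tet1 had the highest value, and its log2 ratio was the closest to 0 of all 9 members, at 16078 and 15084 (log2 ratio −0.09). Tet2 stood at 5838 and 8706 (0.58). Tet3, which is best known from the oocyte and the nervous system, stood at 349 and 532 (0.60). Tdg, the glycosylase that acts after the TET enzymes, stood at 917 and 784 (−0.23). The Tet2 value was 0.363 of the Tet1 value with empty vector and 0.577 with ID2, a 1.59-fold shift, whereas the ratio of Tet2 to Tet3 hardly differed (16.7 and 16.4). Tdg went the other way from Tet2, and its value was 0.157 and then 0.0900 of the Tet2 value.

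**Figure D1:**
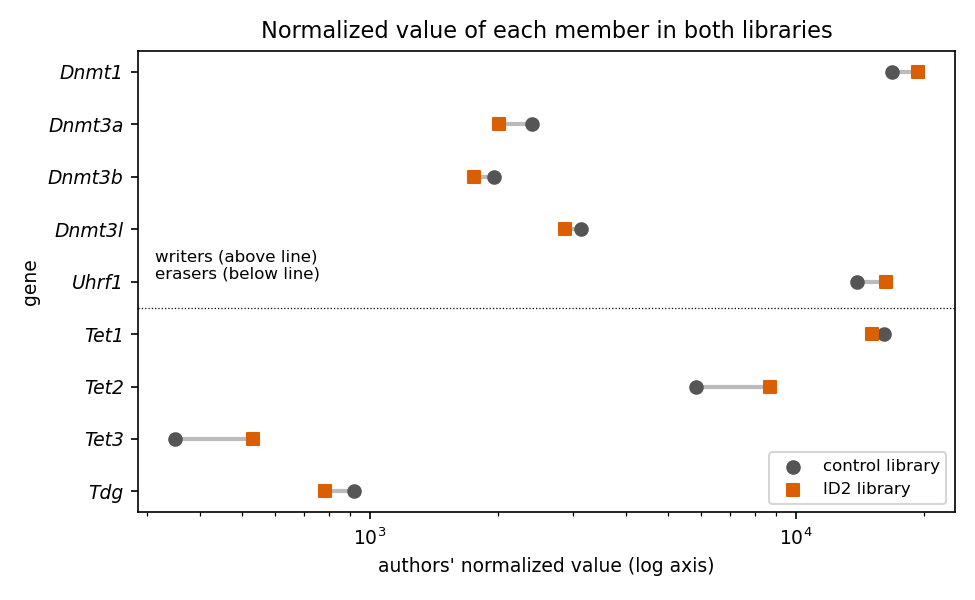
Authors' normalized value of each member (horizontal, log axis) in the control library (grey circles) and the ID2 library (orange squares), 1 library each, with writers above the dotted line and erasers below it. Tet2 (5838 and 8706) and Tet3 (349 and 532) show the widest gaps, and the 3 Dnmt3 genes, Tet1 and Tdg lie lower in the ID2 library.

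None of the 9 members was 2-fold apart, a threshold that 2.53% of the 12679 genes with a mean of at least 50 (the floor used throughout) passed upward and 1.86% downward. At 1.5-fold, 1 member was called higher (Tet3) and 0 lower, beside a background of 8.0% higher and 6.59% lower, and Tet2 lay just under that threshold. At a log2 ratio of at least 0.32 in size, 2 members were higher (Tet2 and Tet3) and 0 lower, where the background was 18.2% and 16.4%. By any amount, 4 of 9 members were higher and 5 lower, and over all 12679 genes 49.8% were higher and 50.2% lower by the same ratio. Genes whose values were equal before the libraries' factors (1.29%) come out 0.014 higher by those factors alone and are counted as higher here and in the lists below. The members' counts were thus near the background at each of these thresholds.

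The spread of ratios narrows with level, so each member was set beside the 500 genes nearest to it in mean level. For Tet2 the 5th and 95th percentiles of these genes were −0.39 and 0.44, and its ratio of 0.58 lay outside them; 9.20% of these genes had a ratio of 0.32 or more. For Tet3, at a far lower level, the percentiles were −0.60 and 0.85, and its similar ratio of 0.60 lay inside them, with 20% of the genes at 0.32 or more. The other 7 members also lay inside their ranges. Dnmt1 and Uhrf1 lay at 0.20 and 0.23 where the 95th percentiles were 0.48 and 0.46, and Dnmt3a at −0.25 where the 5th percentile was −0.41. The ranges describe how genes of like level scattered between these 2 libraries and do not measure replicate error. By construction 5% of the compared genes lie beyond each end of such a range. That 1 of 9 members lay outside is thus near the share set by construction. In the authors' deposited table Tet2 had an unadjusted p of 0.0315 and Tet3 of 0.180, the other members lay between 0.378 and 0.722, and the adjusted p was 1 for all 9; these p-values come from 1 library per group.

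**Figure D2:**
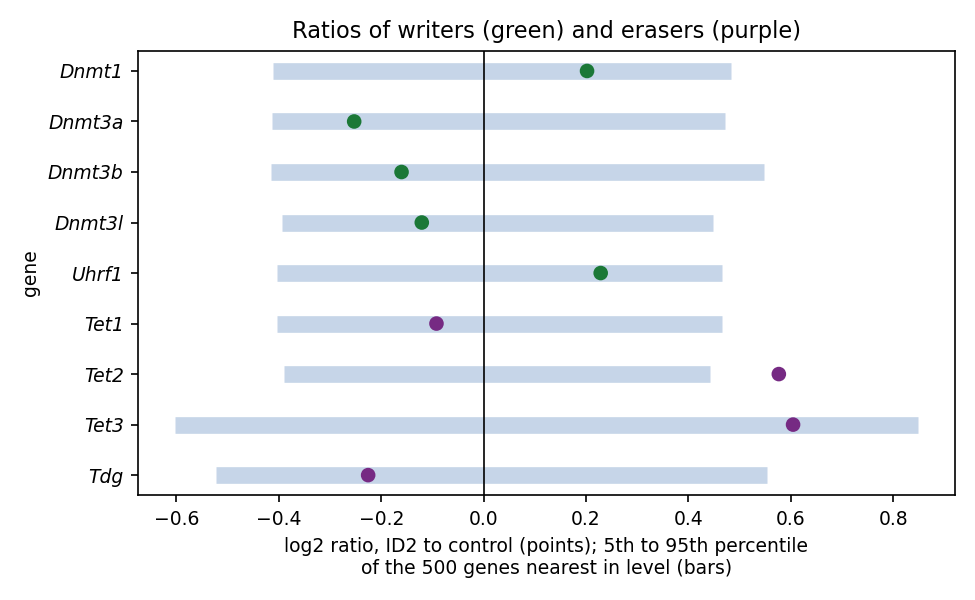
Log2 ratio of ID2 to control for each member (points, writers green, erasers purple) over the 5th to 95th percentile of the 500 genes nearest in mean level (bars). Tet2, at 0.58, is the 1 member outside its bar, where by construction 5% of the compared genes lie beyond each end. The bar of Tet3, at 0.60, is wider because its level is lower.

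Set as classes, the 5 writers had a median log2 ratio of −0.12 and the 4 erasers one of 0.24, while the median over all genes above the floor was 0.00 after rounding (−0.0023). The eraser had the higher ratio in 14 of 20 pairs of 1 writer and 1 eraser. Neither class moved as a block, with 2 writers higher and 3 lower, and 2 erasers higher and 2 lower. The mean of the writers was −0.02 and that of the erasers 0.22. For the methyltransferases and TET enzymes alone, without Uhrf1 and Tdg, the medians were −0.14 and 0.58, and the TET gene had the higher ratio in 11 of 12 pairs. The eraser median therefore depended on whether Tdg was counted. Members are not replicates, and no test was made between the classes.

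Levels can be compared between genes only per length, and lengths were taken from GENCODE M21, as the longest coding transcript or as the longest coding sequence. Per kilobase of transcript, the order in the control library was Uhrf1 (3873), Dnmt1 (2860), Dnmt3l (1715), Tet1 (1119), Tet2 (636), Dnmt3b (453), Tdg (262), Dnmt3a (248) and Tet3 (32.0). The order was the same in the ID2 library. There Tet2 (948 per kilobase) came close to Tet1 (1050) by transcript length but not by coding length (1511 and 2465). With 1 library per group, it cannot be said which neighbours in this order differ beyond their spread. Per kilobase of coding sequence in the control, Dnmt3a (879) stood above Dnmt3b (758) and Tdg (724), and Tet1 (2627) above Dnmt3l (2468), each the reverse of the order per kilobase of transcript. The annotated Dnmt3a transcript used here has 9685 bases, of which 6838 are in 1 exon, and embryonic stem cells are known to use mainly a shorter isoform that starts within the gene, so the place of Dnmt3a in the order is uncertain.

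Among the TET genes, per kilobase of transcript, Tet2 made up 35.6% of the family total with empty vector and 46.3% with ID2. Tet1 made up 62.6% and 51.3%, and Tet3 1.79% and 2.38%. Per kilobase of coding sequence the Tet2 share was 27.3% and 37.1%, lower in both libraries but with a similar difference between them. The TET total per kilobase of transcript was 1787 and 2047. Among the methyltransferase genes, Dnmt1 made up 54.2% and 60.02% of the total per kilobase of transcript, Dnmt3l 32.5% and 28.8%, Dnmt3b 8.59% and 7.40%, and Dnmt3a 4.69% and 3.79%. Per kilobase of coding sequence, Dnmt3a made up 11.6% and 9.64%, above Dnmt3b (10.03% and 8.86%), with the same direction between libraries. The makeup of both families thus differed in the ID2 library, toward Tet2 in one and toward Dnmt1 in the other.

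**Figure D3:**
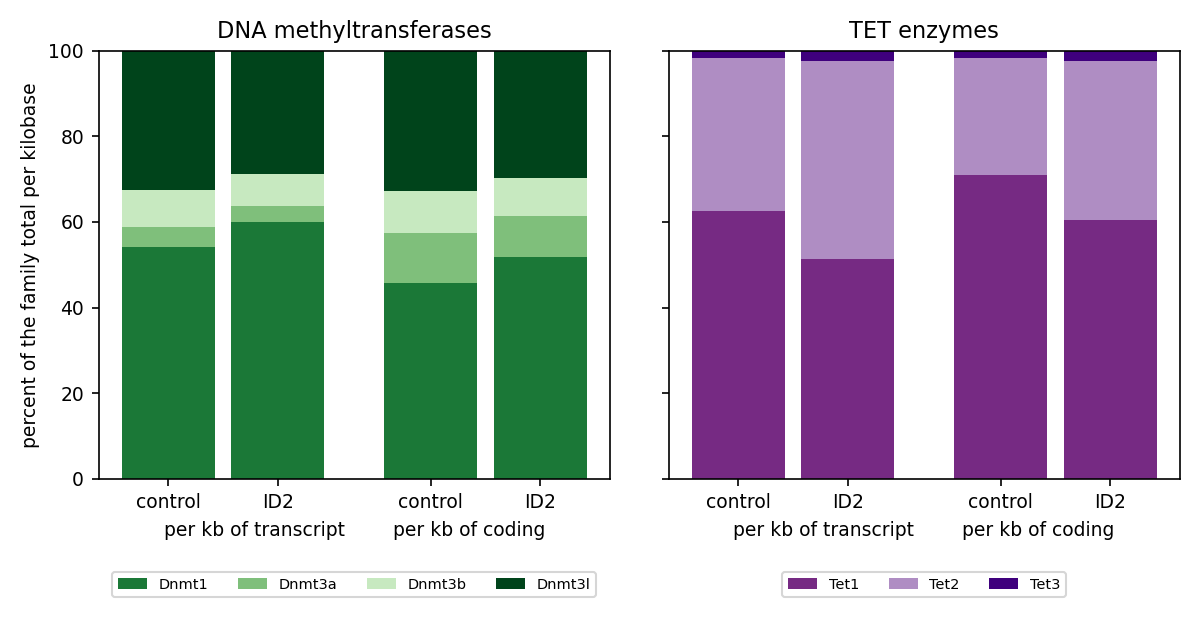
Share of each gene in its family's total value per kilobase (vertical, percent), for DNA methyltransferases (left) and TET enzymes (right), in the control and ID2 libraries, per kilobase of transcript and of coding sequence. The Tet2 share is larger in the ID2 library by either length (46.3% against 35.6% per kilobase of transcript), as is the Dnmt1 share (60.02% against 54.2%).

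Gene structure moved with the ratios in these libraries. Over 11507 coding genes above the floor, the share at least 1.5-fold higher in the ID2 library was 2.45% where under 20% of the transcript lay in its largest exon, and 17.8% where at least 80% did. Tet2 had 49.2% of its transcript in 1 exon and Tet3 68.4%, in classes where 5.81% and 8.73% of genes were at least 1.5-fold higher. Tet1 (61.5%), Tdg (63.4%) and Dnmt3a (70.6%) were in the same class as Tet3 and stood lower in the ID2 library. Dnmt1, with 13.3% in its largest exon, was in the class with the lowest share of higher genes and stood higher. The part of gene structure in the ratios of Tet2 and Tet3 was not tested.

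**Figure D4:**
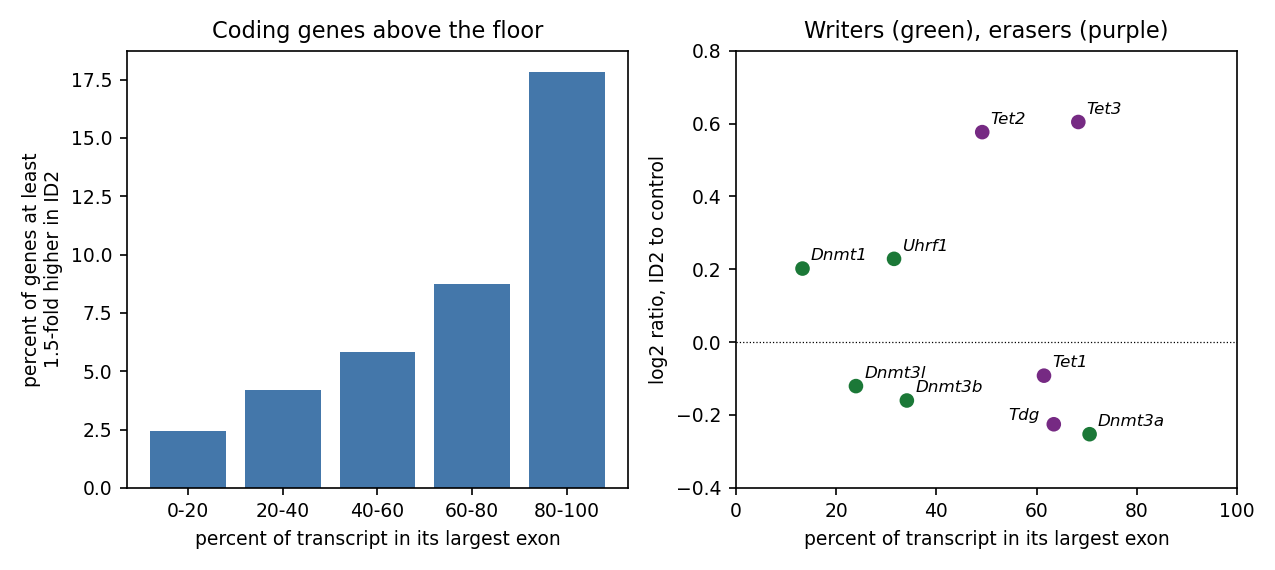
Left, percent of coding genes above the floor that were at least 1.5-fold higher in the ID2 library, by the percent of the transcript in its largest exon; the share climbs from 2.45% to 17.8%. Right, log2 ratio of each member against the same property; Tet3 shares its class (60 to 80%) with Tet1, Tdg and Dnmt3a, which lie below 0.

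Partners of the copying step were mixed. The median log2 ratio was 0.03 over 9 listed genes, all above the floor, of which 6 stood higher and 3 lower. The proliferating cell nuclear antigen Pcna, the sliding clamp that DNMT1 binds at replication forks, stood at 5623 and 6745 (0.26). Zbtb24, a zinc finger factor that drives Cdca7, stood at 504 and 645 (0.36), and Cdca7l, a relative of Cdca7, at 784 and 468 (−0.74). Genes of DNA replication, which run with Dnmt1 and Uhrf1 in S phase, had a median of 0.09, with 12 of 16 higher and 4 lower. Their largest ratios were those of the thymidylate synthase Tyms (1061 and 1401, 0.40), Mcm5 (10536 and 12842, 0.29) and Mcm3 (15389 and 18328, 0.25), subunits of the replicative helicase. The ratios of Dnmt1 and Uhrf1 lay within the range of this list, which ran from −0.06 to 0.40, and the part of cell cycle makeup in them was not tested.

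Genes that recruit de novo methylation or mark its sites had a median of 0.11, with 8 of 11 higher and 3 lower. Over all genes above the floor 49.8% were higher. Before the libraries' factors, 7 of the 11 were higher and 4 lower. The 3 Dnmt3 genes were lower. Zfp57, which binds methylated imprinting control regions, stood at 13510 and 23489 (0.80). Trim28, the corepressor that ZFP57 brings to DNA, stood at 25906 and 34240 (0.40), and Nsd1, a histone H3 lysine methyltransferase whose mark draws DNMT3A, at 6556 and 9745 (0.57). Genes that feed or bind the TET enzymes had a median of 0.03, with 5 of 9 above the floor higher and 4 lower. Ogt, which binds TET proteins and adds a sugar to nuclear proteins, was the most different (20697 and 15108, −0.45), Lin28a stood at 3770 and 3226 (−0.22) and Cxxc5, a CXXC protein that binds TET2, at 1449 and 1680 (0.21). Prdm14, a repressor of Dnmt3b that is chosen here after its values were seen, stood at 1046 and 1103 (0.08). Dppa3, which keeps UHRF1 off chromatin, was the 1 listed gene under the floor (47.8 and 20.1), and Cxxc4 is not listed in the table.

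Of 9 listed genes of the methyl-CpG binding domain (MBD) family and zinc finger readers of methylated CG sites, 8 stood higher. The median was 0.43. Mbd4, also of the MBD family, was listed with base excision repair instead and stood lower (1224 and 977, −0.33). MBD3, MBD5 and MBD6 are not known to prefer methylated CG. Without their genes, an alternative chosen after seeing the data, all 6 other listed genes were higher, with a median of 0.55. Mbd4 is not counted there either. The zinc finger reader Zbtb38 stood at 470 and 719 (0.61), and Zbtb4, another, at 138 and 211 (0.61). At least 1.5-fold higher were 3 of the 9, beside 8.0% of all genes. By level, 2 of the 9 had means from 50 to 250, where 17.3% of genes were at least 1.5-fold higher, and 5 from 250 to 1000, where 7.65% were. The 9 genes have long exons, with a median of 65.2% of the transcript in the largest exon beside 51.5% over coding genes above the floor, and the part of gene structure in this count was not tested. With a floor of 250 the median was 0.27.

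The supply of methyl groups had a median of 0.06, with 9 of 15 genes higher and 6 lower. Gldc, of the glycine cleavage system, stood at 3871 and 2324 (−0.74). Amd1, which diverts S-adenosylmethionine to polyamines and has a near-identical copy that may share its reads, stood at 1458 and 2168 (0.57). Base excision repair, the pathway in which TDG acts, had a median of −0.11, with 6 of 14 higher and 8 lower. This list holds 8 other DNA glycosylases, which like TDG remove bases, and 6 genes of later steps. The 6 later genes had a median of 0.15, with 5 higher and 1 lower, a split made after the values were seen. Apex1, the endonuclease that cuts after the base is removed, stood at 588 and 912 (0.63), Nthl1, a glycosylase of oxidized pyrimidines, at 1246 and 860 (−0.53), and Fen1, a flap endonuclease, at 91.6 and 128 (0.47).

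Germline genes of the kind that DNA methylation keeps low in stem cells had a median of −0.58, with 14 of 17 genes above the floor lower and 3 higher. At least 1.5-fold lower were 8 of the 17, beside 6.59% of all genes. Of the 17, 9 had means from 50 to 250, where 16.1% of genes were at least 1.5-fold lower and the 5th percentile was −1.07, and 8 from 250 to 1000, where 5.91% were and the 5th percentile was −0.61. Taf7l, a germ cell subunit of the general transcription machinery, stood at 165 and 82.4 (−0.99), Brdt, a testis bromodomain protein, at 140 and 74.4 (−0.91), and Mael, which acts in piRNA silencing, at 579 and 312 (−0.89). Taf7l and Brdt thus lay inside the range of their level and Mael outside it. This list was drawn up with the lower germline values of these libraries already known, so its direction is no independent evidence. The values of DNA methylation itself were not analysed here.

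**Figure D5:**
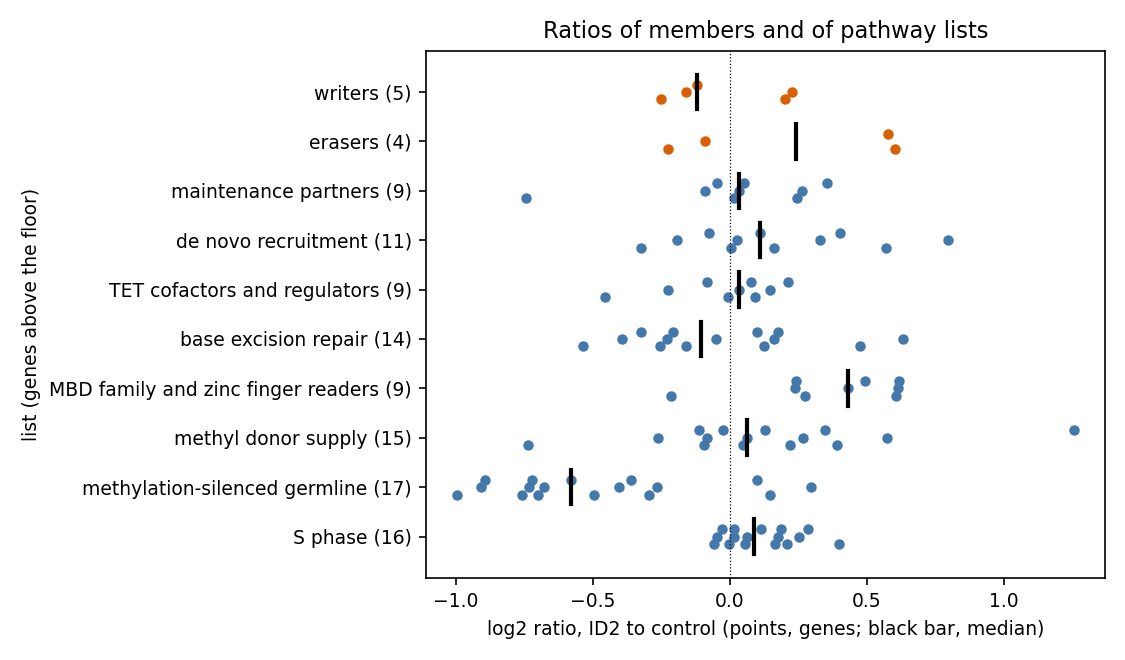
Log2 ratio of ID2 to control for members (orange) and for pathway genes above the floor (blue), 1 point per gene, with the list median as a black bar and the number of genes in parentheses. Listed genes of the MBD family and zinc finger readers lie mostly above 0 (8 of 9) and methylation-silenced germline genes mostly below it (14 of 17). Mbd4, also of the MBD family, is drawn under base excision repair and lies below 0. The writers and erasers lie on both sides.

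Id2 itself stood at 324 and 26225, in the direction of the labels. Stem cell markers were present in both libraries and were higher in the ID2 library in 5 of 5 cases, with log2 ratios of 0.09 to 0.85. They ran from Pou5f1 (12770 and 13619), Sox2 (11692 and 15076) and Nanog (14938 and 17563) to Zfp42. A ratio above 0 was also found for 49.8% of the 12679 genes. Of the 5 markers 1 reached 1.5-fold, a size that 8.0% of those genes reached. The largest exon held a median of 67.5% of the transcript for these markers and 51.5% for coding genes. Whether gene structure enters their ratios was not tested. Markers of fibroblasts and feeder cells summed to 2114 and 1342 over the 4 of 8 listed in the table, with all 3 above the floor lower, and Col3a1, Postn, Lum and Dcn not listed. Of the markers of primitive endoderm, trophectoderm and neural progenitors, 8 of 15 were listed, and their sums were 316 and 259, 3860 and 2369, and 811 and 1013. Markers within these lists went both ways: Tfap2c stood at 3697 and 2150 and Eomes at 163 and 219, and Sox1 at 386 and 782 and Nes at 425 and 231. Markers of cells that resemble the cleavage embryo summed to 161 and 181 over 3 of 6 listed. The part of other cells in the ratios of the members was not tested, and in bulk RNA a change in the cells present cannot be told apart from a change in RNA per cell.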

How the data were processed

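The deposited table gives each gene a normalized signal value per library, their mean, a fold (the ratio of ID2 to control), its log2 and a p-value with its adjusted form, all made by the authors. The authors used mm9, STAR and DESeq, per the submitters' processing notes, which give no versions; the annotation and the counter are not stated, and the TruSeq v2 kit named in the labels does not mark strand. Checked on the file, values came in whole steps (within 0.01), and the sorted whole numbers of both libraries were identical (0 ranks differed), so the values had been set to a common distribution and depth cannot be recovered. Each group holds 1 library, and no test was run.

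The log2 ratio used a pseudocount of 1, and genes with a mean of at least 50 were kept (12679; 1719 fell under it). Fold calls (2, 1.5 and a log2 ratio of 0.32) are by size alone. Named genes were the 9 members, Id2, Pou5f1, Sox2, Nanog and up to 3 genes of each pathway list with the largest absolute ratio; 2 genes that this rule names are not reported here, and Dppa3, Prdm14, the markers other than Pou5f1, Sox2 and Nanog, and the repair genes of the closing section were named after their values were seen. Likeness of pattern to other genes cannot be measured with 2 libraries. Members and lists were chosen with earlier results of these data known. Symbols were matched directly or through RefSeq synonyms; 11507 of 12679 genes matched a coding GENCODE transcript (90.8%), and all 9 members matched a start window. The computation of ratios and fold calls was checked on simulated counts with known changes. Python 3.11.15, numpy 2.4.6, pandas 2.3.3 and matplotlib 3.10.9 were used.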

Additional observations from a re-analysis of the deposited data

How the results depend on the processing

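Over 167 recomputed values, 145 stayed within 0.1 on the log2 scale, within 1.5 times for counts or within 5 points for shares, and 22 moved. The ratios of the 9 members shifted by at most 0.0140 under another scaling, whole steps, pseudocounts of 0.1 and 10 and the authors' log2 column, settings that could hardly move genes of this level, so this is no measure of replicate error. Counting the TET enzymes alone gave an eraser median of 0.58 in place of 0.24, and a difference from the methyltransferases of 0.72 in place of 0.36. At least 2-fold higher were 321 genes and lower 236; without a floor these were 551 and 470, with a floor of 250 they were 105 and 53. At 1.5-fold they were 1014 and 835, at a log2 ratio of 0.32 they were 2313 and 2085, and at 4-fold 23 and 18. These counts differ by construction, through fewer or more genes tested or a wider or narrower threshold. With coding in place of transcript length, family shares moved for Tet1 (70.9% and 60.5%, control first), Tet2 (27.3% and 37.1%), Dnmt1 (45.7% and 51.9%) and Dnmt3a (11.6% and 9.64%), with the same direction between libraries. No paired analysis was possible because each group has 1 library. Depth is unknown, so counting error could not be given; Tet3 (349 and 532) is the member with the lowest values.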

Other observations

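Within base excision repair the ratios differed by step, a split chosen after the values were seen and so given as values alone. Of 9 DNA glycosylases, which remove altered bases and include Tdg, 8 were lower in the ID2 library and 1 higher (Ogg1, 332 and 372). Their median log2 ratio was −0.23. Over all genes above the floor 50.2% were lower and 49.8% higher. Of the 8, only Nthl1 (−0.53) lay below the 5th percentile of its level, which was −0.46 for means from 1000 to 2000. Mbd4, which like TDG acts on mismatched thymine at CG sites, stood at 1224 and 977 (−0.33), Smug1 at 1134 and 984 (−0.21) and Neil2 at 802 and 611 (−0.39). Of the 6 genes of later steps, 5 were higher and 1 lower (Polb, the polymerase that fills the gap, 687 and 614), with a median of 0.15. The median share of the transcript in its largest exon was 50.8% for the glycosylases and 35.5% for the later genes.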
